A study of Arabidopsis thaliana with 16 samples.

Results

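The genes that Arabidopsis thaliana uses to make vitamin B6 from simple precursors are PDX1.1, PDX1.2, PDX1.3 and PDX2. These 4 genes were taken by their identifiers from 69252 annotated entries, of which 27652 are protein-coding, and all 4 were present and tested in both deposited comparisons. Under ultraviolet B (UV-B) light PDX1.1 and PDX1.3 rose, to 2.09 and 1.68 times their level in white light, and PDX1.2 and PDX2 did not pass the test. In the methylation mutant dd none of the 4 passed the test, where 0.421% of all tested entries did.

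The study asked how UV-B light acts on DNA methylation and transcripts. Whole seedlings of the Columbia-0 ecotype (Col-0) were grown on sucrose-containing agar and collected on day 10, and treated seedlings received 1.5 mE of UV-B at 315 nm together with 60 mE of white light. Values were available for dd and Col-0 seedlings kept in white light and for Col-0 seedlings given UV-B, and each of these groups had 2 RNA-seq libraries, which the labels call biological replicates. The dd line carries the T-DNA insertions drm1-2 and drm2-2 in the Columbia-0 background, which hit a pair of genes for cytosine methyltransferases. UV-B-treated dd seedlings and the 8 bisulfite libraries were not analysed here.

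Each group has 1 deposited value per gene, in fragments scaled by transcript length and by the size of the library (FPKM), so the spread between replicates cannot be given. The authors' p-values and q-values, the latter adjusted over all tested entries, are the test used throughout, with q under 0.05 as the threshold. Nothing states whether the replicates came from separate cultures, so these p-values may measure technical spread. Read totals are not part of the tables. Depth was judged only roughly, by the lowest nonzero values of transposon entries that stand alone, 22 to 53 entries per group. By this estimate the Col-0 white-light libraries were about 3.7 times as deep as those of dd. Against those of Col-0 under UV-B the factor was about 2.5. The label of the mutant was checked on its targets. DRM2 had 1.82 FPKM in the mutant and 7.09 in the wild type (q = 0.0138 in the authors' deposited table), while DRM1 was listed at 0.319 in dd and at 0 in Col-0 and was not tested. Leaf markers were high in every group, at 3340 to 13340 FPKM, and epidermis markers were present. The root markers COBL9, EXPA7, SCR and SHR were present too. The root markers PLT1 and NRT2.1 had only 0.486 and 0.358 FPKM in Col-0 in white light, near the highest seed storage value. Seed storage markers were at 0.504 FPKM or below.

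Vitamin B6 is a family of related compounds whose active form, pyridoxal 5′-phosphate (PLP), is the cofactor of many enzymes of amino acid metabolism. Plants build PLP with a complex of PDX1 and PDX2 proteins. PDX2 is a glutaminase that frees ammonia from glutamine, and the catalytic PDX1 proteins join this ammonia with a pentose phosphate and a triose phosphate. In Arabidopsis PDX1.1 and PDX1.3 are catalytic, whereas PDX1.2 lacks this activity and is known as a heat-induced partner of the other PDX1 proteins. Vitamin B6 compounds also quench singlet oxygen, and mutants short of them are sensitive to strong light.

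PDX1.1 (AT2G38230, chromosome 2, 16011233 to 16012515, TAIR10) and PDX1.3 (AT5G01410, chromosome 5, 171889 to 173663), the catalytic subunits, were among the more abundant transcripts of these seedlings. In Col-0 in white light PDX1.3 had 127 FPKM, above 96.1% of protein-coding genes. PDX1.1 had 86.0 FPKM in the same group, above 94.1% of protein-coding genes. PDX2 (AT5G60540, chromosome 5, 24336623 to 24338802), the glutaminase, had 24.6 FPKM. PDX1.2 (AT3G16050), the non-catalytic member, was lowest with 11.3 FPKM, above 63.1% of protein-coding genes. The order of levels was thus PDX1.3, PDX1.1, PDX2 and PDX1.2, and it was the same in all 3 groups. With no value per replicate, differences between neighbours in this order were not tested.

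The locus range given for PDX1.2 (chromosome 3, 5443081 to 5445329) is shared with 2 other entries. The antisense RNA AT3G03215 was listed at 0 in all groups, and the protein-coding AT3G16040 at 0 in white light, 0 in dd and, with UV-B, 0.614 FPKM by the authors' deposited tables. The library kit keeps strand, but no source used here says whether strand was used in counting. PDX1.1 and PDX1.3 are close relatives, and how reads matching both were divided is not given either. The loci of the other 3 genes are shared with no other entry.

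**Figure D1:**
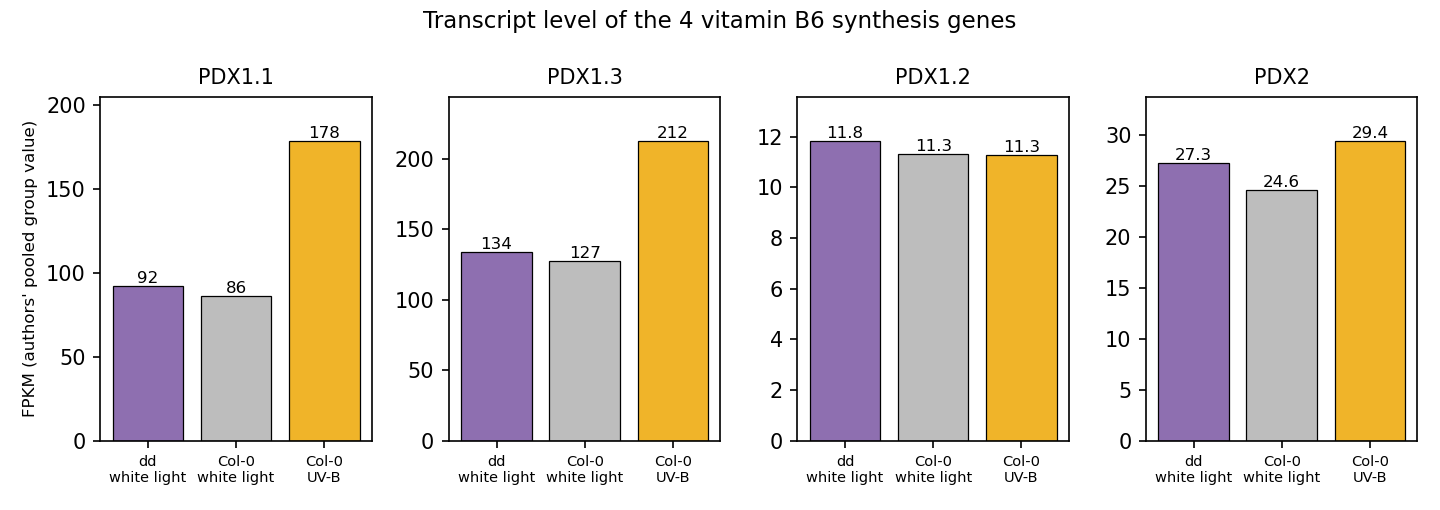
Transcript level (vertical axes, FPKM, each with its own scale from 0) of PDX1.1, PDX1.3, PDX1.2 and PDX2 in the dd mutant and in Col-0 without UV-B, and in Col-0 with it; each bar is the single pooled value per group, so no error bar is drawn. Only the UV-B bars of PDX1.1 (178) and PDX1.3 (212) stand well above those of the other groups.

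The comparison of UV-B with white light in Col-0 asked which transcripts respond to the treatment. PDX1.1 had 178 FPKM with UV-B and 85.3 without it, a log2 change of 1.07 (q = 0.00249 in the authors' deposited table). PDX1.3 had 212 FPKM with UV-B and 126 without it, a log2 change of 0.75 (q = 0.00249 in the authors' deposited table). That q belongs to the smallest p-value in the table, 5e-05, which 413 entries share. An approximate 95% interval taken from the authors' test statistic runs from 0.64 to 1.49 on the log2 scale for PDX1.1 and from 0.32 to 1.18 for PDX1.3. Among the 420 entries that rose, ordered by log2 change, PDX1.1 took place 95 and PDX1.3 place 207.

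PDX2 had 29.4 FPKM with UV-B and 24.4 without it, a log2 change of 0.27 that did not pass the test (p = 0.114 and q = 0.636 in the authors' deposited table). Its approximate 95% interval, derived from the authors' p, runs from -0.07 to 0.61 on the log2 scale and so holds both no change and a change as large as 1.52-fold. PDX1.2 had 11.3 FPKM with UV-B and 11.2 without it (p = 0.969 in the authors' deposited table). The interval of its log2 change of 0.01 runs from -0.40 to 0.42, which leaves room for a change of up to 1.34-fold. Taken from the test statistic, as for PDX1.1, the interval of PDX1.2 is wider, from -0.54 to 0.56. It does not overlap that of PDX1.1 but overlaps that of PDX1.3. On the same basis the interval of PDX2 runs from -0.21 to 0.75, up to 1.68-fold, and overlaps those of PDX1.1 and PDX1.3. Differences between the changes of these genes were not tested.

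**Figure D2:**
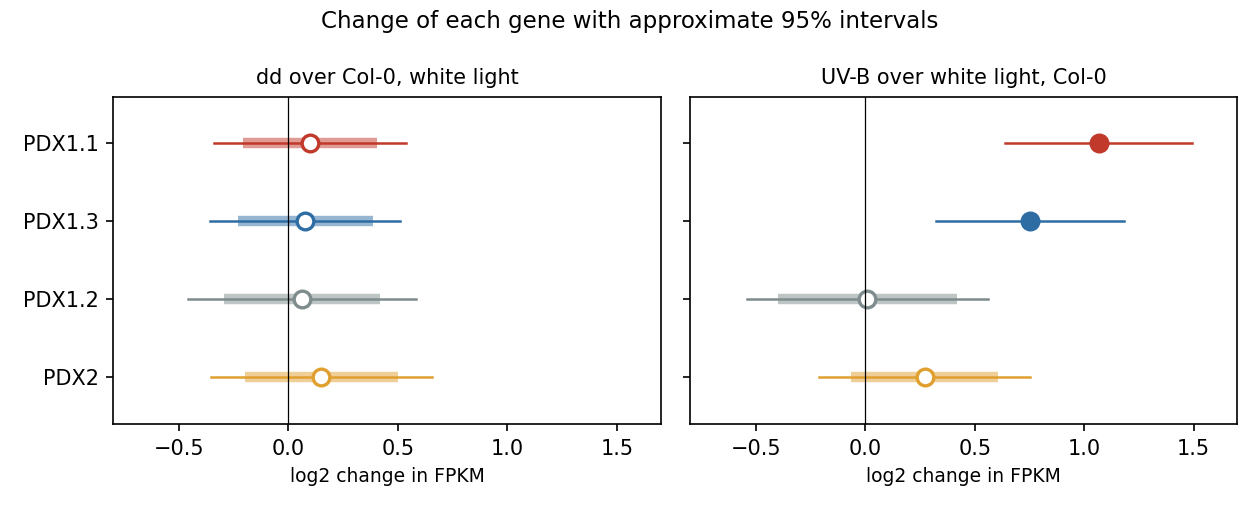
Log2 change in FPKM (horizontal axes) of the 4 genes (vertical axis) in dd over Col-0 and under UV-B over white light. Filled points have q under 0.05; thin lines are approximate 95% intervals from the authors' test statistic and thick bars the narrower ones from the authors' p, which cannot be had for PDX1.1 and PDX1.3 under UV-B. Both filled points lie right of 0 with their intervals, and all other intervals include 0.

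Thus 2 of the 4 genes rose and none fell, where 2.04% of the 20595 tested entries rose under UV-B and 1.81% fell. Calls were more frequent among abundant genes. Of protein-coding genes at 50 to 200 FPKM in white light, the range that holds PDX1.1 and PDX1.3, 4.30% rose, against 2.88% at 20 to 50 FPKM, the range of PDX2, and 1.73% at 5 to 20 FPKM, the range of PDX1.2. The smallest log2 change called in either direction in these 3 ranges was 0.48, 0.48 and 0.50, all above the changes of PDX2 and PDX1.2. The median log2 change of the 4 genes was 0.51, and that of all tested entries was 0.00. These seedlings were measured whole, so more RNA per cell and more cells of a type that holds the transcript cannot be told apart. Summed leaf markers had 23023 FPKM with UV-B and 21793 without it, with LHCB1.2 lower in the authors' deposited table (q = 0.00249) and RBCS1A and RCA not called. Summed root markers had 40.7 and 38.6 FPKM, with NRT2.1 higher (q = 0.00648 in the authors' deposited table). Summed epidermis markers had 131 and 156 FPKM with no member called, and seed storage markers 0.326 and 0.694 FPKM, with CRU3 at 0 in both groups. Their part in the PDX1.1 and PDX1.3 result was not tested.

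**Figure D3:**
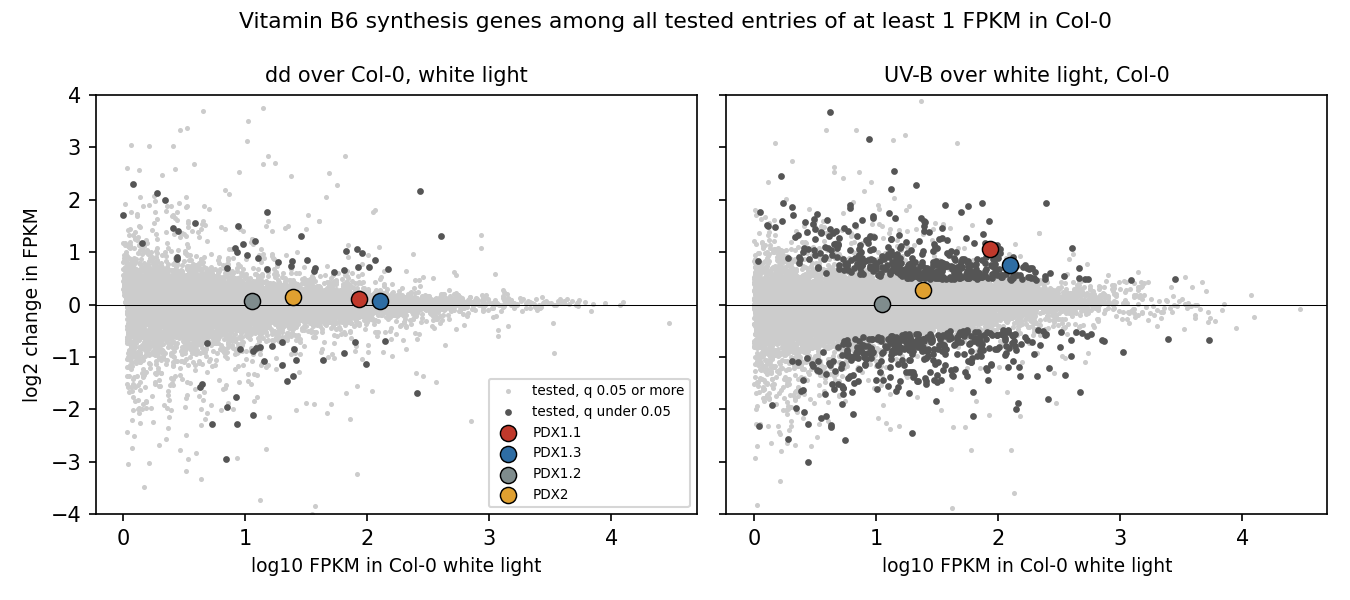
Log2 change in FPKM (vertical axes) against log10 FPKM in Col-0 in white light (horizontal axes) for tested entries of at least 1 FPKM in Col-0; 12 entries for dd and 7 for UV-B lie beyond the axis limit of 4 and are not drawn. Dark points have q under 0.05. PDX1.1 and PDX1.3 lie at the right within the upper band of called entries under UV-B, and all 4 genes lie in the uncalled cloud for dd.

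The make-up of the PDX1 transcript pool moved with these changes. FPKM is scaled by length, so levels of different genes can be added. PDX1.1 and PDX1.3 together had 391 FPKM with UV-B and 211 without it, 1.85 times as much. PDX1.1 made up 44.4% of summed PDX1 FPKM with UV-B and 38.3% without it. The share of PDX1.3 was 52.8% and 56.7%, so it remained the most abundant member. PDX1.2 held 2.81% under UV-B and 5.04% in white light, at nearly the same FPKM. For each FPKM of PDX2 there were 13.3 FPKM of PDX1.1 and PDX1.3 under UV-B and 8.67 in white light. These shares and ratios describe 1 pooled value per group and carry no test.

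**Figure D4:**
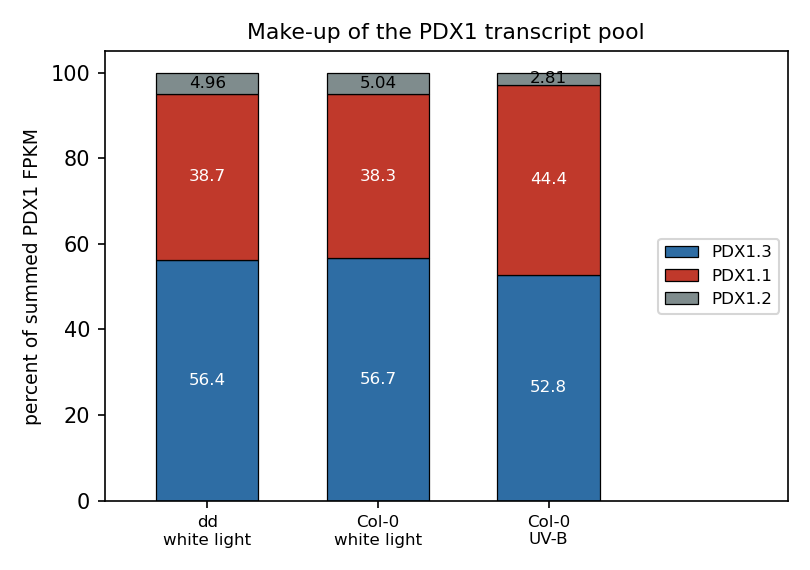
Percent of summed PDX1 FPKM (vertical axis) held by PDX1.3, PDX1.1 and PDX1.2 in the 3 groups; segments are single pooled values without error. The PDX1.1 segment is 44.4 under UV-B against 38.3 in Col-0 in white light, and the PDX1.2 segment is 2.81 against 5.04.

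The comparison of dd with Col-0, both in white light, asked which transcripts depend on DRM1 and DRM2. PDX1.1 had 92.0 FPKM in the mutant and 86.0 in the wild type (p = 0.529 in the authors' deposited table). PDX1.3 had 134 and 127 FPKM (p = 0.630 in the authors' deposited table). PDX1.2 had 11.8 and 11.3 FPKM (p = 0.731 in the authors' deposited table), and PDX2 had 27.3 and 24.6 FPKM (p = 0.397 in the authors' deposited table). All 4 values were slightly higher in dd, by 0.06 to 0.15 on the log2 scale, and q was 0.999 for each in the authors' deposited table. Of all tested entries 50.8% were higher in dd. None of the 4 passed the authors' Cufflinks-format test at q 0.05, and no unadjusted p was under 0.05, while of 20416 tested entries 0.421% passed, 0.264% as higher and 0.157% as lower in dd. The approximate 95% intervals derived from the authors' p reach from -0.29 for PDX1.2 at the lowest to 0.50 for PDX2 at the highest. Changes of up to 1.41-fold are within them. The wider intervals from the test statistic reach from -0.46 for PDX1.2 to 0.65 for PDX2, or up to 1.57-fold. PDX1.1 made up 38.7% of summed PDX1 FPKM in dd and PDX1.2 made up 4.96%. This comparison and that of UV-B use the same Col-0 libraries, whose deposited values differ between the tables by a factor of 1.01.

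Vitamin B6 is also recovered from its other forms by salvage enzymes. PDX3 (AT5G49970, listed by RefSeq as PPOX), the oxidase that turns the phosphates of pyridoxine and pyridoxamine into PLP, had 58.5 FPKM with UV-B and 46.0 without it (p = 0.0254 and q = 0.295 in the authors' deposited table). PLR1 (AT5G53580), a pyridoxal reductase, had 52.2 and 40.1 FPKM (p = 0.0178 and q = 0.238 in the authors' deposited table). SOS4 (AT5G37850), the pyridoxal kinase, had 56.4 and 50.2 FPKM (q = 0.879 in the authors' deposited table). Neither the oxidase, the reductase nor the kinase passed the threshold. The list, which covers salvage and homeostasis, also held AT1G11930 and AT4G26860, for which the RefSeq table has no name. They were listed as PLPBP_a and PLPBP_b and are not among the salvage enzymes above. AT4G26860 rose from 63.8 to 98.1 FPKM under UV-B (q = 0.00819 in the authors' deposited table), and AT1G11930 had 61.4 and 54.1 FPKM (q = 0.845 in the authors' deposited table). In all, 1 of the 5 listed genes rose, AT4G26860, and none fell, where 2.04% of all tested entries rose and 1.81% fell. The median log2 change of the 5 was 0.35. At 50 to 200 FPKM in white light, the range that holds AT4G26860, 4.30% of protein-coding genes rose and 3.45% fell. In dd, where 0.421% of all tested entries passed, none of the 5 did. None of them had an unadjusted p under 0.05 in the authors' deposited table, and their median log2 change was 0.11.

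Enzymes that supply the PDX complex with substrates were described by a list of 11 genes for ribose-phosphate isomerases, triose-phosphate isomerases and glutamine synthetases. None passed the test under UV-B, which is near the 3.85% of all tested entries that did, and 3 had an unadjusted p under 0.05 in the authors' deposited table. The median log2 change of the list was 0.20, and 10 of 11 values were higher, where 49.8% of all tested entries were higher under UV-B. The list spans 3.43 to 1337 FPKM in white light, and changes leaned upward with level. Protein-coding genes had a median log2 change of -0.01 at 5 to 20 FPKM and 0.05 at 50 to 200 FPKM. GS2, the plastid glutamine synthetase, had 1516 FPKM with UV-B and 1337 without it (q = 0.811 in the authors' deposited table). GLN1;2, a cytosolic form, had 654 and 572 FPKM (q = 0.771 in the authors' deposited table). In dd, where 0.421% of all tested entries passed, none of them did and 1 had an unadjusted p under 0.05 in the authors' deposited table.

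Of 38 genes for enzymes that use PLP, 4 rose and 1 fell with UV-B according to the authors' deposited table, or 13.2% against 3.85% of all tested entries. The list spans 6.05 to 1101 FPKM in white light, and calls were more frequent among abundant genes. At 50 to 200 FPKM in white light 4.30% of protein-coding genes rose and 3.45% fell. GLDP2 and GLDP1 encode the P-protein of glycine decarboxylase, which acts in photorespiration. GLDP2 rose from 86.7 to 147 FPKM and GLDP1 from 201 to 310 FPKM (q = 0.00249 for both in the authors' deposited table). AOAT2 (AT1G70580), a glutamate:glyoxylate aminotransferase, rose from 34.5 to 54.0 FPKM (q = 0.00249 in the authors' deposited table). TAT7, a tyrosine aminotransferase named after its values were seen, rose from 28.6 to 43.7 FPKM (q = 0.00249 in the authors' deposited table). TAT3, also a tyrosine aminotransferase, fell from 30.8 to 8.53 FPKM (q = 0.00249 in the authors' deposited table). In white light AOAT2, TAT7 and TAT3 lay at 20 to 50 FPKM, where 2.88% of protein-coding genes rose and 2.36% fell. GLDP2 lay at 50 to 200 FPKM and GLDP1 just above that range. The most abundant members were not called: SHM1, a serine hydroxymethyltransferase of photorespiration, had 1305 and 1101 FPKM (q = 0.598 in the authors' deposited table), and GGT1 had 1093 and 878 FPKM (q = 0.345 in the authors' deposited table). The list's median log2 change was 0.16. In dd, where 0.421% of all tested entries passed, none of the 38 did. Of the 38, 2 had an unadjusted p under 0.05 in the authors' deposited table.

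**Figure D5:**
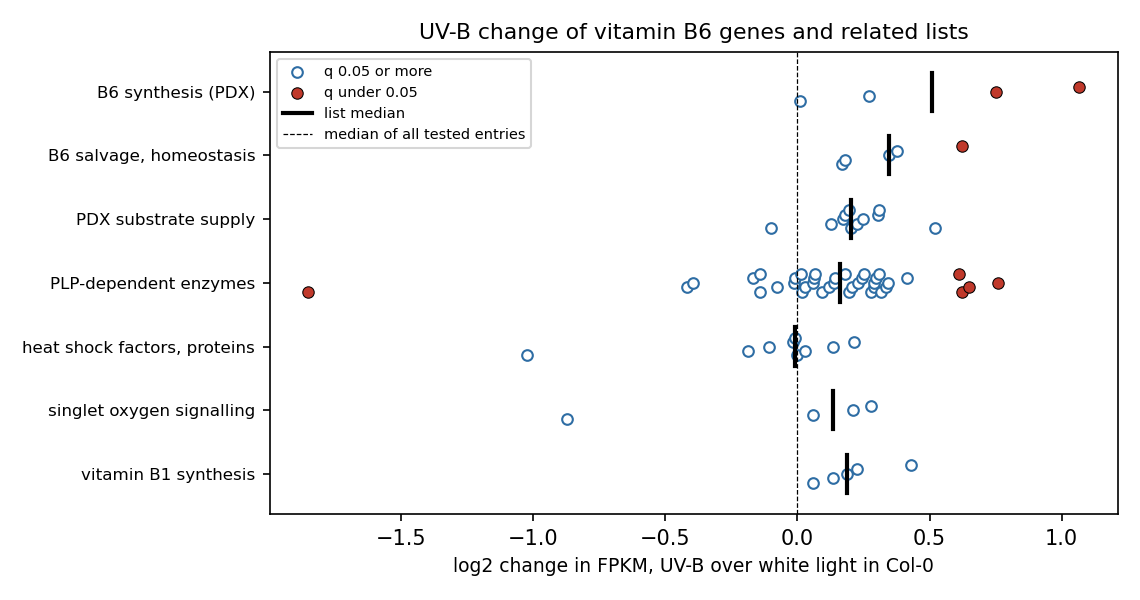
Log2 change in FPKM under UV-B over white light in Col-0 (horizontal axis) for the tested genes of 7 lists (vertical axis), 1 point per gene. Red points have q under 0.05, black bars are list medians and the dashed line is the median of all tested entries. PDX1.1 (1.07) and PDX1.3 (0.75) are the red points of the top list, and the heat shock list has none.

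PDX1.2 is known as a target of class A1 heat shock factors, so 9 genes for heat shock factors and heat shock proteins were set beside it. None passed under UV-B or in dd, and no unadjusted p in the authors' deposited tables was under 0.05. With 3.85% of all tested entries called under UV-B and 0.421% in dd, no call among 9 genes is near the background. Their median log2 change under UV-B was -0.01, next to 0.01 for PDX1.2. HSP70 (AT3G12580) had 23.6 FPKM with UV-B and 20.3 without it (q = 0.756 in the authors' deposited table), and HSP90.1 had 14.2 FPKM in both (q = 0.998 in the authors' deposited table). Of 4 genes of singlet oxygen signalling none passed under UV-B, where 1 had an unadjusted p under 0.05 in the authors' deposited table, and none passed in dd, where none had such a p. The gene with that p under UV-B was BAP1, named after its values were seen, whose transcript is known to respond to singlet oxygen. It had 3.28 FPKM with UV-B and 6.00 without it, a log2 change of -0.87 (q = 0.0649 in the authors' deposited table). No call among 4 genes is near the background share as well. EX1 and EX2, plastid proteins needed for this signal, had 30.3 and 33.6 FPKM with UV-B and 25.0 and 29.0 without it (q = 0.769 and 0.759 in the authors' deposited table).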

How the data were processed

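A strand-keeping mRNA kit was used for the RNA-seq libraries, per the labels' protocols. Cufflinks, HISAT2, Trimmomatic and BSMAP and the build TAIR10 are named, per the submitters' processing notes, without role or version. The deposited values are FPKM, 1 per group, per the file headers, which follow a Cufflinks comparison table. The authors' p-values, q-values and test statistic, a signed score, come from the same deposited tables. The 2 transposon lists hold none of the 4 genes and were not used.

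Log2 changes were computed without pseudocount as treated or mutant over Col-0 in white light. Approximate standard errors are the log2 change over the normal quantile of the authors' p or, at the smallest p, over their test statistic, chosen after seeing the data; for the other entries the latter gave errors 1.43 times as large. Locus starts were made 1-based. Names come from the RefSeq table of TAIR10.1, which matched all 92 listed genes; its coordinates were not used. Depth is known only roughly, from transposon entries over 1200 bp, so no counting intervals are given. The genes and lists were chosen with earlier results of these data known. Named genes were the 4 members, the DRM genes and all salvage and homeostasis genes. Up to 4 called members and 2 abundant uncalled members of each other list were named too, with the 3 genes nearest in pattern to each member. Adjustment and error formulas were run on simulated data. The simulated p-values were built from the same normal formula, so this checked the arithmetic and not the intervals. Python 3.11.15, pandas 2.3.3 and scipy 1.17.1 were used.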

Additional observations from a re-analysis of the deposited data

How the results depend on the processing

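Alternative runs used pseudocounts of 0.1 and 1 FPKM, 2 other scalings and the Col-0 values of the other table. These moved only the log2 change, because the authors' q was carried over and no test was rerun. Calls could move with adjustment over protein-coding genes alone, with q 0.01 or with a required log2 change of at least 1. PDX1.1 and PDX1.3 stayed called as higher under UV-B with that adjustment and at q 0.01. Over all runs their log2 changes were 1.03 to 1.07 and 0.72 to 0.75. PDX2 stayed uncalled at 0.24 to 0.27. PDX1.2 changed sign, to -0.023 when scaled by the protein-coding sum and to -0.0042 with the Col-0 value of the other table, so it has no direction. In dd the 4 log2 changes stayed uncalled and above 0. Requiring a log2 change of at least 1 left 1 of the 4 genes, PDX1.1, called under UV-B. It left 0 higher calls among salvage and homeostasis genes and 0 among PLP-dependent enzymes. Of all entries it left 112 higher and 134 lower under UV-B and 35 and 21 in dd. At q 0.01 there were 264 higher entries under UV-B (255 lower), and 0 higher and 0 lower in dd, where the smallest q is 0.0138. Intervals from the test statistic were 1.35 to 1.46 times as wide as those from p. No paired analysis was possible because the tables hold 1 value per group, and for the same reason no replicate could be left out. PDX1.2, the lowest of the 4 genes, has the widest interval in both comparisons. By the rough estimate from transposon entries the dd and UV-B libraries were the shallower ones. A link between depth and interval width was not tested.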

Other observations

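Vitamin B1 synthesis was read beside that of vitamin B6. None of its 5 genes passed the test under UV-B, where 1 had an unadjusted p under 0.05 in the authors' deposited table, and none passed in dd, where none had such a p. No call among 5 genes is near the share of all tested entries called, 3.85% under UV-B and 0.421% in dd. THI1, the thiazole synthase and by far the most abundant of them, had 2277 FPKM with UV-B and 1690 without it (q = 0.0767 in the authors' deposited table). THIC, the pyrimidine synthase, had 80.0 and 70.3 FPKM (q = 0.812 in the authors' deposited table). All 5 values were higher under UV-B, where 49.8% of all tested entries were, with a median log2 change of 0.19. These genes had 10.9 to 1690 FPKM in white light. Protein-coding genes had a median log2 change of -0.01 at 5 to 20 FPKM and 0.05 at 50 to 200 FPKM.

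The genes beside PDX1.1 and PDX1.3 were not called in either comparison. AT2G38240 starts 19 bp after the end of PDX1.1 and had 0.565 FPKM under UV-B, 1.11 in white light and 2.45 in dd (p = 0.0768 for UV-B and 0.0105 for dd in the authors' deposited tables). APD3, which ends 102 bp before PDX1.1, was at 0.193 FPKM or below and was not tested. ESP4, before PDX1.3, had 5.17 FPKM with UV-B and 5.46 without it (p = 0.650 in the authors' deposited table), and AT5G01420, after it, had 1.64 and 1.23 FPKM (p = 0.290 in the authors' deposited table).

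The genes most like each member over the 3 groups were taken by the Euclidean distance of their log2 FPKM among 18393 protein-coding genes. For PDX1.1 these were CP1 (AT5G49480, 0.14), HBP1 (AT1G17100, 0.15) and AT1G75280 (0.20). For PDX1.3 they were SEP2 (AT2G21970, 0.08), AT2G04039 (0.16) and AT1G78020 (0.18). For PDX1.2 they were JMJD5 (0.0085), SAC3A (0.014) and AT4G10170 (0.022), and for PDX2 AT4G28480, RLK (AT2G37710) and EX1, at 0.04 to 0.05. The choice fixes that these genes change as the member does, so their own tests are not given. Only 3 points underlie each distance, and they share the Col-0 libraries.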
